A study of Mus musculus with 3 samples.

Results

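Erythroblasts from conditional-knockout embryos were sorted into 2 populations, and the RNA of these 2 populations is compared here. One library came from CD71+ Ter119-high cells whose Drosha abundance is labelled null, and the other from CD71+ Ter119-low cells whose Drosha abundance is labelled as that of wild type. They are 2 of the 3 libraries of the series, chosen by their labels. Both carry the genotype Drosha fl/fl;cdh5-cre+, so floxed Drosha alleles and the Cre transgene are shared by the 2 populations. The library left, CD71+ Ter119-high cells of control embryos that were Drosha fl/fl or Drosha fl/+, is given beside them as a further value. All cells were taken from mouse peripheral blood at E10.5, and the blood of 5 embryos was pooled for the RNA. Each population is represented by 1 library with no replicate, so the embryo-to-embryo spread is unknown and no p-value is given. The Ter119 gate and the labelled Drosha abundance differ together between the 2 cKO libraries, and their contributions cannot be told apart.

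Drosha is the nuclear RNase III of the Microprocessor. With its RNA-binding partner Dgcr8 it cuts primary miRNA transcripts into hairpin precursors, which Dicer1 then trims to mature miRNAs that guide Argonaute proteins to matching 3′ UTRs. miR-451 and miR-144 come from 1 erythroid transcript and are abundant in red-cell precursors; miR-451 is unusual in being matured by Argonaute 2 in place of Dicer1. The circulating erythroblasts at this stage are mostly primitive cells of yolk sac origin, which carry embryonic globins and mature in the bloodstream. CD71 is the transferrin receptor, and Ter119 recognises a surface antigen that accumulates as erythroblasts mature. Cdh5 encodes VE-cadherin, and its regulatory sequence directs Cre to endothelial cells, including those that give rise to blood.

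The mature miRNAs below are those whose seed matches were counted in 3′ UTRs. The seed, bases 2 to 8, is in capitals, and the sequences are those of RefSeq on GRCm38. Of 7 seed families asked for, 6 had a sequence. let-7a-5p, miR-16-5p, miR-17-5p and miR-92a-3p each stand for the family that shares the seed.
mmu-miR-451a: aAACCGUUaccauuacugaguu
mmu-miR-144-3p: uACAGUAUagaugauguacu
mmu-let-7a-5p: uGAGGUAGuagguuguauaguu
mmu-miR-16-5p: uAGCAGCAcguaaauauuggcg
mmu-miR-17-5p: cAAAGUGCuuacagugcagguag
mmu-miR-92a-3p: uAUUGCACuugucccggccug

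The control library held 9497431 counts, the Drosha-null 9325822 and the Ter119-low 9418480. Between 13279 and 13896 genes had at least 1 count in a library. Globin genes took 23.1% of the Ter119-low counts (95% exact binomial interval 23.1 to 23.1), 17.1% of the Drosha-null counts (17.0 to 17.1) and 25.01% of the control counts. Ribosomal RNA took 27.9 to 28.7% in the 3 libraries. A ratio is the Drosha-null over the Ter119-low count after TMM scaling, a method that sets the bulk of genes to a ratio near 1, with 0.5 counts added, on the log2 scale. Brackets hold its 95% interval, which covers counting error alone. Where 3 counts follow one another without names, their order is control, Drosha-null, Ter119-low.

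A gene was called when it differed by 2-fold or more and its counting interval excluded equality. Of 10795 genes with a level of at least 1 CPM (counts scaled to a common library size) in either cKO library, 1170 (10.8%) were called higher in the Drosha-null Ter119-high library and 638 (5.91%) lower. Together 16.7% of the genes were called. A difference of 4-fold or more was reached by 348 of the higher and 130 of the lower genes, and 8-fold or more by 101 and 41. The median ratio of all genes was −0.02, with quartiles of −0.42 and 0.49. Scaling by total counts in place of TMM raised every ratio by about 0.34 and gave 2036 genes higher and 304 lower. The share of called genes that were higher then went from 64.7% to 87.0%, and to 75.5% where totals left out ribosomal RNA, globin and mitochondrially encoded genes. Directions are therefore read relative to the median gene.

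**Figure D1:**
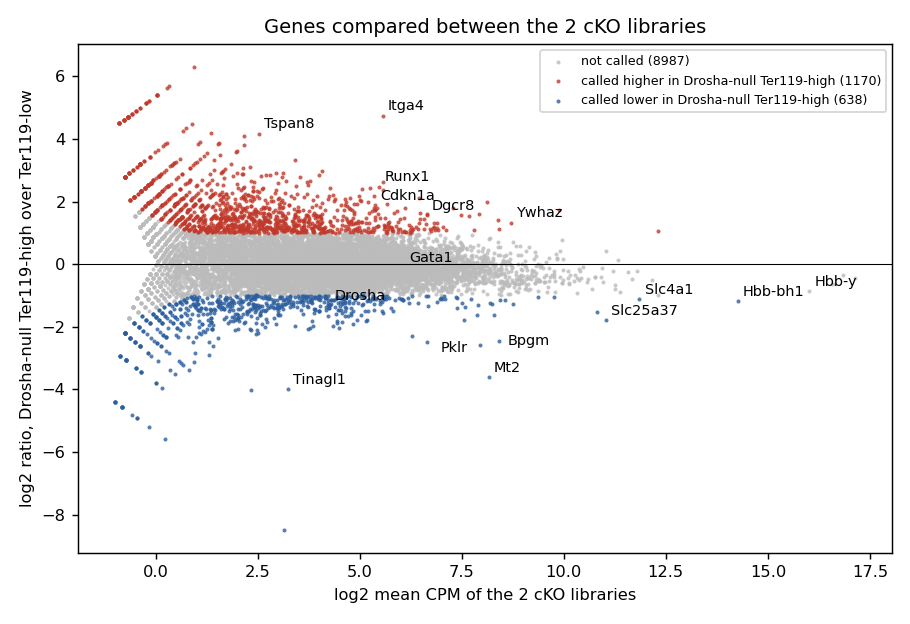
Each point is 1 of the 10795 genes compared; the x axis is the log2 mean CPM of the 2 cKO libraries and the y axis the log2 ratio of Drosha-null Ter119-high over Ter119-low. The 1170 genes called higher are red, the 638 called lower are blue, and the globin genes at the far right lie below 0.

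Drosha itself was counted 324 times in control, 122 times in Drosha-null and 244 times in Ter119-low cells. The Drosha-null cells were the lowest of the 3, and Drosha was called lower there than in Ter119-low cells, at a ratio of −1.32, or 2.50-fold (2.01 to 3.14). Under total-count scaling it was −0.98, short of the 2-fold limit, as it was at −0.79 from FPKM with 1 added. The Ter119-low level was −0.49 relative to the control (−0.74 to −0.25), between the other two, although its label puts Drosha at the wild-type abundance. Counts are per gene, so reads from exons outside a floxed segment are included in the Drosha-null value. Dgcr8, whose own mRNA is a known substrate of the Microprocessor, had 317 counts in control, 1658 in Drosha-null and 450 in Ter119-low cells. Its ratio was 1.56 (1.41 to 1.71). Dgcr8 thus ran opposite to Drosha, and its Ter119-low level lay above the control by 0.42 (0.21 to 0.63).

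Of 21 listed genes of the Microprocessor and the miRNA machinery, 5 (23.8%, against 10.8% of all genes) were called higher and Drosha was the 1 called lower. Their median ratio was 0.41, against −0.02 for all genes. The highest was Prkra, which encodes the Dicer partner PACT, with 18, 107 and 17 counts in control, Drosha-null and Ter119-low cells and a ratio of 2.30 (1.58 to 3.16). The other 3 were Mov10 (2.08), Tnrc6a (1.28) and Eif2c3 (1.10), which encode an RNA helicase, a GW182 scaffold of silencing complexes and Argonaute 3. These 3 were chosen after their values were seen. Dicer1 (0.30), Ddx5 (0.06) and Ran (−0.47) were not called. Among 23 transcripts that host miRNAs, 6 (26.1%, against 10.8% of all genes) were called higher and 1 called lower, with a median of 0.16. Dleu2, the long RNA that contains miR-15a and miR-16-1, stood highest with 18, 73 and 6 counts and a ratio of 3.19 (2.09 to 4.77). H19, which hosts miR-675, was the lowest of the list, at 12827, 6311 and 10497 counts and −1.06 (−1.10 to −1.01); under total-count scaling it was −0.72 and missed the 2-fold limit.

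Among genes with 10 CPM or more in the higher cKO library, ranked by the end of the interval nearest to 0, which favours abundant genes over sparse ones with larger ratios, the first of the 12 highest in the Drosha-null library was Itga4, the integrin α4 chain that binds fibronectin and VCAM-1. Itga4 had 23 counts in control, 1015 in Drosha-null and 30 in Ter119-low cells, a 26.7-fold difference between the cKO populations (18.8 to 40.3). Tspan8, a tetraspanin of the cell surface, went from 5 counts in Ter119-low cells to 122 in Drosha-null cells (4 in the control), a ratio of 4.17 (3.02 to 5.93). Rcan3, a regulator of calcineurin, had 22, 218 and 17 counts in control, Drosha-null and Ter119-low cells and a ratio of 3.32 (2.65 to 4.16). In all 3 the control and Ter119-low counts were both low.

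The remaining 9 had ratios between 2.42 and 2.97. They were Stk39 (2.97), a kinase that regulates ion cotransporters; Ddah1 (2.90), which degrades asymmetric dimethylarginine; and Wipf1 (2.90), a partner of the actin regulator WASP. Ndrg2 (2.83), Gatsl2 (2.78) and Vwa5a (2.77) followed. Itgav (2.67) encodes the integrin αv chain, Runx1 (2.47) a transcription factor of definitive blood formation, and Impad1 (2.42) a Golgi phosphatase. For Runx1 the counts were 80 in control, 836 in Drosha-null and 120 in Ter119-low cells.

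The 12 lowest genes in the Drosha-null library by the same ranking included products of the mature red cell. Mt2, a metallothionein that binds zinc, had 4426 counts in control, 483 in Drosha-null and 4709 in Ter119-low cells, so that it was 12.2-fold lower in the Drosha-null cells (11.1 to 13.4). Mt1, its neighbour in the family, had 1730, 339 and 1521 counts and a ratio of −2.49 (−2.66 to −2.32). For both metallothioneins the control and Ter119-low counts were similar. Pklr, the pyruvate kinase of red cells and liver, had 3292 counts in control, 791 in Drosha-null and 3769 in Ter119-low cells, and its ratio was −2.57 (−2.69 to −2.46). Bpgm, which makes the 2,3-bisphosphoglycerate that lowers haemoglobin's oxygen affinity, had 4550, 1170 and 5117 counts and a ratio of −2.45 (−2.54 to −2.36). Slc25a37, the mitochondrial iron importer mitoferrin-1, had 29361, 10429 and 28821 counts and a ratio of −1.79 (−1.82 to −1.76).

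Other genes in this group were Tinagl1 (−3.99), a secreted matrix-associated protein; Lmx1a (−2.30), a LIM-homeobox factor; Pole3 (−2.06), a histone-fold subunit of DNA polymerase ε; and Padi2 (−2.04), a peptidylarginine deiminase with fractional counts. Snrnp25 (−2.03), a protein of the minor spliceosome, and Gtf3a (−1.98), the factor TFIIIA of 5S RNA transcription, were also among them. Tinagl1 had 152 counts in control, 12 in Drosha-null and 159 in Ter119-low cells. In 23 of the 23 highest and lowest genes named here the Ter119-low level was nearer to the control than to the Drosha-null level, at most 1.89-fold from the control, a distance reached by Ddah1. The genes were chosen for their difference between the 2 cKO libraries.

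**Figure D2:**
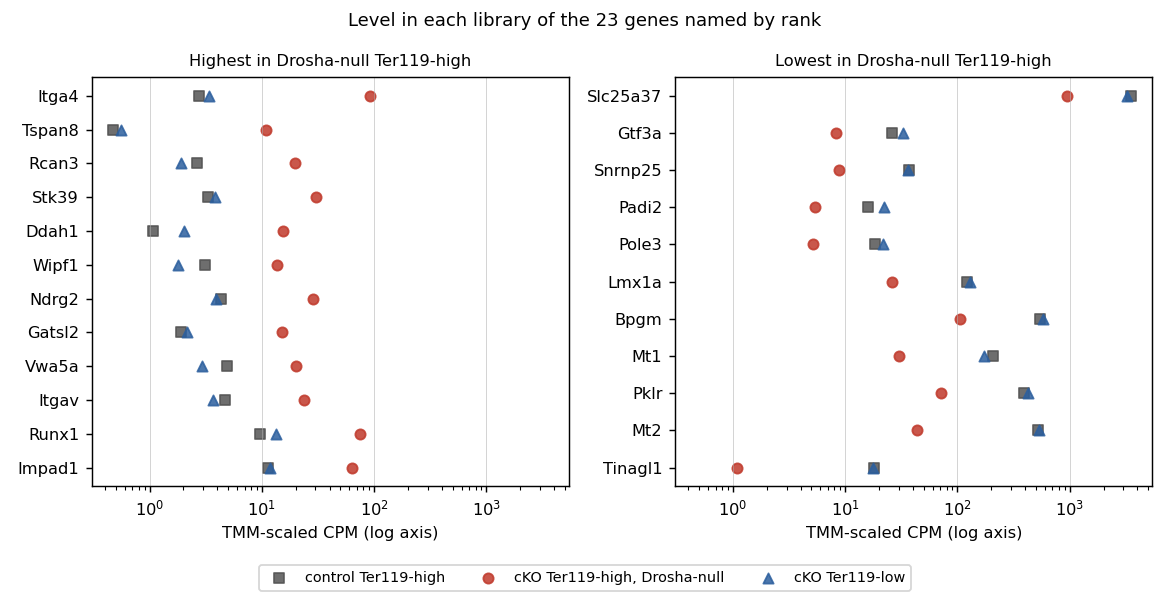
Each row is 1 of the 23 genes named by rank, and each symbol its TMM-scaled CPM (log x axis) in 1 library: control Ter119-high (grey squares), Drosha-null cKO Ter119-high (red circles) and cKO Ter119-low (blue triangles). The red circles stand apart on the right in the left panel and on the left in the right panel, while squares and triangles lie close together.

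Globin transcripts made up less of the Drosha-null library. Hbb-y, the embryonic β-like εy globin, had 855491 counts in control, 525547 in Drosha-null and 761814 in Ter119-low cells, a ratio of −0.86 (−0.86 to −0.85). Hba-x, the embryonic ζ globin, had 1083439, 869310 and 1077084 counts and a ratio of −0.63 (−0.64 to −0.63). Hbb-bh1, the βh1 globin of early primitive cells, had 328997, 133985 and 242266 counts and was called lower at −1.18 (−1.19 to −1.17). The 3 embryonic globins kept their direction under total-count scaling, at −0.52, −0.29 and −0.84, where Hbb-bh1 missed the 2-fold limit.

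Of 7 adult-type and minor globin genes, 3 were called lower (Hba-a2 at −1.52, Hbq1b at −1.55 and Hbb-bh2 at −1.33) and none higher. Hba-a1 (−0.97) was not called. Hbb-b1 (−0.11), Hbb-b2 (0.06) and the Beta-s entry (−0.01) lay near the median gene, with 8534 counts of Hbb-b1 in Drosha-null and 7375 in Ter119-low cells. Hba-a1, Hba-a2, Hbq1b, Hbb-b1, Hbb-b2 and Beta-s have fractional counts in the authors' table, so reads of near-identical copies were shared between them and the split among these genes is uncertain. The sum of the embryonic globins was 22.1% of the Ter119-low and 16.4% of the Drosha-null counts.

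The transcripts of 2 red-cell surface proteins were lower in the Ter119-high than in the Ter119-low cKO cells; the gate reads a surface antigen and the counts read mRNA. Tfrc, which encodes CD71, had 9994 counts in control, 6862 in Drosha-null Ter119-high and 10159 in Ter119-low cells, and a ratio of −0.89 (−0.93 to −0.84), short of the 2-fold limit. Slc4a1, the band 3 anion exchanger, had 45014, 25880 and 44906 counts and a ratio of −1.12 (−1.14 to −1.10), or −0.78 under total-count scaling, where it missed that limit.

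Of 26 red-cell surface genes, 4 were called higher and 4 called lower, with a median of −0.30 that became 0.04 under total-count scaling. Cd47, the ligand that restrains phagocytosis of red cells, was highest with 79, 454 and 92 counts and a ratio of 1.97 (1.65 to 2.32). Slc2a4, the insulin-responsive glucose transporter, was lowest at −1.78 with 12 and 34 counts in the Drosha-null and Ter119-low libraries. Of 22 membrane-skeleton genes, 2 were called higher and none lower, with a median of 0.09. Spnb2, the non-erythroid β spectrin, was the highest at 501, 1695 and 445 counts (1.61, interval 1.45 to 1.76), whereas Epb4.1, the erythroid protein 4.1, was the lowest at −0.78 and was not called. Actb was 0.21.

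Heme synthesis and iron handling had lower medians than the bulk of genes. Among 22 genes of heme synthesis, 3 were called lower and 1 higher, with a median of −0.49 that was −0.15 under total-count scaling. Ahsp, the chaperone of free α globin, had 3140 counts in control, 1283 in Drosha-null and 3144 in Ter119-low cells, a ratio of −1.62 (−1.71 to −1.52). Pgrmc1, a heme-binding membrane protein, was the 1 called higher, at 56, 103 and 31 counts (1.40, interval 0.82 to 2.04). Alas2, the erythroid enzyme of the first step, was at −0.50 and Cpox at −0.34; neither was called. Among 23 iron genes, 2 were called lower and none higher, and their median of −0.33 became 0.01 under total-count scaling. The ferritin chains Fth1 (−0.47) and Ftl1 (−0.89) and the iron exporter Slc40a1 (0.66) were not called.

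Of the core erythroid regulators Gata1, Klf1 and Tal1, none was called. Gata1 had 632 counts in control, 729 in Drosha-null and 628 in Ter119-low cells, a ratio of −0.11 (−0.26 to 0.05). Klf1 was at −0.51 (−0.63 to −0.39) and Tal1 at −0.61 (−0.68 to −0.55), both under the lower quartile of all genes (−0.42) and short of the 2-fold limit. Of 31 listed erythroid transcription factors, 2 were called higher and 3 called lower, with a median of −0.15 that was 0.18 under total-count scaling. Hemgn, a nuclear protein of erythroid precursors, was the lowest, at 5664, 2816 and 5406 counts and −1.26 (−1.33 to −1.20), or −0.93 and not called under total-count scaling. Nfia, a factor that promotes erythroid fate, was the highest with 6, 34 and 7 counts (1.89, interval 0.76 to 3.38). Among 38 genes of terminal maturation, 1 was called in each direction: Ulk2, an autophagy kinase, at 1.41, and Bpgm.

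Among genes of blood progenitors, 14 of 25 matched were abundant enough to compare. Of these, 8 (57.1%, against 10.8% of all genes) were called higher and 1 (7.14%, against 5.91%) called lower, with a median of 1.58. From FPKM with 1 added the median exceeded that of all genes by 0.57 over 10 genes, in place of 1.60. A gene near the limit of 1 CPM is compared through the library where it is higher, so shares and medians of sparse lists such as this describe the genes that passed and not the list. Runx1 led this list. Csf2rb, the common β receptor chain of several cytokines, had 2966, 16030 and 3901 counts and a ratio of 1.72 (1.67 to 1.77); its counts are fractional and shared with the near-identical Csf2rb2. Gata2 had 11 counts in control, 13 in Drosha-null and 3 in Ter119-low cells, and its interval of −0.07 to 4.24 included equality; under total-count scaling, at 1.96, it was called. Kit, the receptor for stem cell factor, was called lower at 12, 6 and 15 counts (−1.56, interval −3.30 to −0.20), a call lost under total-count scaling at −1.24 because the interval then included equality. Myc was at −0.59. The list therefore did not move in 1 direction.

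Integrins and adhesion genes showed the highest median of the lists apart from markers of other cell types. Of 30 matched, 17 were compared. Of these, 9 (52.9%, against 10.8% of all genes) were called higher and none lower, with a median of 1.66. A sparse gene passes 1 CPM through the library where it is higher. As for the progenitor list, these values describe the genes that passed and not the list. Beside Itga4, Itgav and Cd47 the genes called higher included Fn1, which encodes fibronectin, the ligand of several integrins. Fn1 had 741 counts in control, 2683 in Drosha-null and 621 in Ter119-low cells, a ratio of 1.79 (1.66 to 1.92). Itgb1, the β1 chain that pairs with α4, had 399, 1086 and 444 counts, and its ratio of 0.97 (0.81 to 1.13) missed the 2-fold limit; it passed at 1.30 under total-count scaling. Icam4, the erythroid intercellular adhesion molecule, was the lowest at −0.87.

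**Figure D3:**
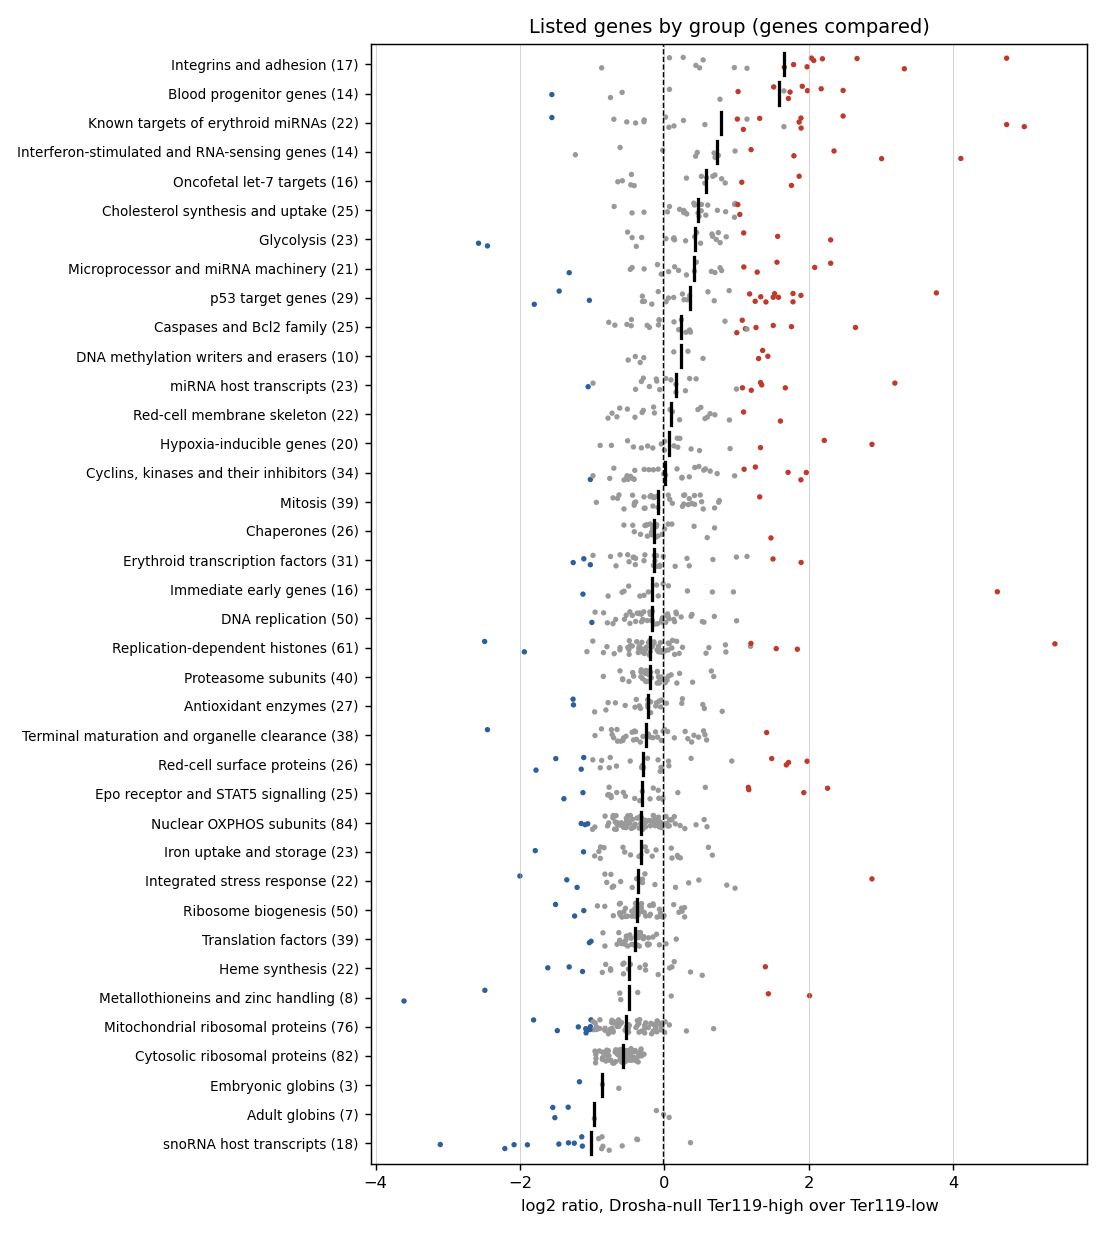
Rows are the gene lists ordered by median, with the number of genes compared in brackets; each point is a gene's log2 ratio of Drosha-null Ter119-high over Ter119-low (red called higher, blue called lower, grey not called). Black bars mark list medians and the dashed line the median of all genes at −0.02; integrins and adhesion lie at the top with 1.66 and snoRNA hosts at the bottom with −1.02.

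Known targets of erythroid miRNAs were examined next. Of 22 compared, 9 (40.9%, against 10.8% of all genes) were called higher and 1 (4.55%, against 5.91%) called lower, and the median was 0.78. Among genes with 10 CPM or more the median exceeded that of all genes by 0.21 in place of 0.80. Ywhaz, which encodes 14-3-3ζ and is an established miR-451 target, had 1903 counts in control, 6662 in Drosha-null and 2135 in Ter119-low cells, a ratio of 1.32 (1.25 to 1.39). Rgs16, a regulator of G-protein signalling, had 6, 17 and 0 counts, so that with the Ter119-low value set to a floor of 3 counts it was at least 4.53-fold higher. Ccnd3, a D-type cyclin of erythroid divisions, was at −0.52 and was not called. Runx1, Itga4, Cdkn1a, Trim71, Nfia, Kit and Gata2 are among members that also sit on other lists, so the same genes are counted in more than 1 list. Among 16 let-7 targets of the oncofetal programme, 3 (18.8%, against 10.8% of all genes) were called higher and none lower, with a median of 0.57. The highest was Trim71, a let-7 target and RNA-binding ubiquitin ligase, at 35, 88 and 19 counts (1.86, interval 1.16 to 2.69), and the lowest was Hic2 at −0.65.

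The reverse complement of the seed was then searched in the longest annotated 3′ UTR of each gene, which existed for 10392 of the genes compared. A site is a match of 7 bases to the mRNA sense strand. The miR-451 site AACGGTT was in 243 of these UTRs (2.34%). Genes with it had a median ratio of 0.49, and 62 of the 243 (25.5%) were called higher and 6 lower. Genes without it had a median of −0.01, with 10.8% called higher. The 6 UTR segments printed here are from called-higher genes with whole-number counts, taken by most counts in the Drosha-null library. The choice left out the genes of a chromosome whose sequences are not reported here. Capitals mark the site, and positions are on GRCm38 from the GENCODE M21 annotation.
Ywhaz, chr15:36772146-36772168, minus strand: tctggtaagggcagaAACGGTTc
Rac1, chr5:143506187-143506209, minus strand: cgggtaaagctttttAACGGTTa
Agps, chr2:75930406-75930428, plus strand: tctgtttttccatgaAACGGTTt
Hp1bp3, chr4:138242650-138242672, plus strand: ttttgatatcaggcaAACGGTTt
Atxn1, chr13:45551123-45551145, minus strand: ccagacgaaatgcagAACGGTTt
Zcchc3, chr2:152412297-152412319, minus strand: ctgtcaccagtgagaAACGGTTc

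Rac1, a small GTPase of the actin cytoskeleton, had 911 counts in control, 4043 in Drosha-null and 1057 in Ter119-low cells, a ratio of 1.61 (1.51 to 1.71). Atxn1, the transcriptional regulator ataxin-1, had 158, 973 and 248 counts and a ratio of 1.65 (1.45 to 1.86). Hp1bp3, a heterochromatin-binding protein, had 383, 1440 and 423 counts and a ratio of 1.44 (1.29 to 1.60). Agps, an enzyme of ether lipid synthesis, was at 1.15 and Zcchc3, a zinc-finger protein of nucleic acid sensing, at 1.18. In each of these genes the Ter119-low count was nearer to the control than to the Drosha-null count. They were picked among genes already called higher, so their ratios are a description.

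Sites of the other families went with smaller shifts. The median ratio was 0.24 for 861 genes with a miR-92/25 site (GTGCAAT), 0.16 for 1656 with a miR-17/20/93 site (GCACTTT) and 0.13 for 1551 with a miR-144-3p site (ATACTGT). It was 0.09 for 1305 genes with a let-7 site (CTACCTC) and 0.08 for 2987 with a miR-15/16 site (TGCTGCT). Genes without the respective site had medians of −0.02 for let-7 and miR-92/25, −0.03 for miR-144-3p and −0.04 for miR-17/20/93 and miR-15/16. A match is a description of the sequence and not a shown binding site. The sets overlap, since 1 UTR can hold several sites.

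UTRs with a site were longer: a median of 2397 bases with a miR-451 site against 1433 without. Within 5 classes of UTR length the miR-451 medians with a site were 0.12, 0.69, 0.75, 0.43 and 0.44, from the shortest to the longest class, against −0.19, −0.11, 0.03, 0.05 and 0.14 without. The shortest class held 9 genes with a site. For let-7 the difference was smaller and changed sign, with 0.03 with and 0.06 without a site in the fourth class and 0.14 and 0.16 in the longest. The miR-15/16 difference changed sign too, with −0.13 with and −0.10 without a site in the second class. For miR-92/25, miR-17/20/93 and miR-144-3p the median with a site was the higher in each of the 5 classes. For miR-92/25 it was 0.14, 0.11, 0.31, 0.12 and 0.30, against −0.19, −0.11, 0.03, 0.05 and 0.12 without. Requiring 8 bases, which left 47 genes with a miR-451 match, gave a median of 0.38 and 25.5% called higher. The other families rose with 8 bases, to 0.30 and 20.9% called higher for miR-92/25, 0.25 for miR-17/20/93, 0.19 for miR-144-3p and 0.16 for let-7 and miR-15/16, so that the miR-451 median then stood closer to theirs.

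**Figure D4:**
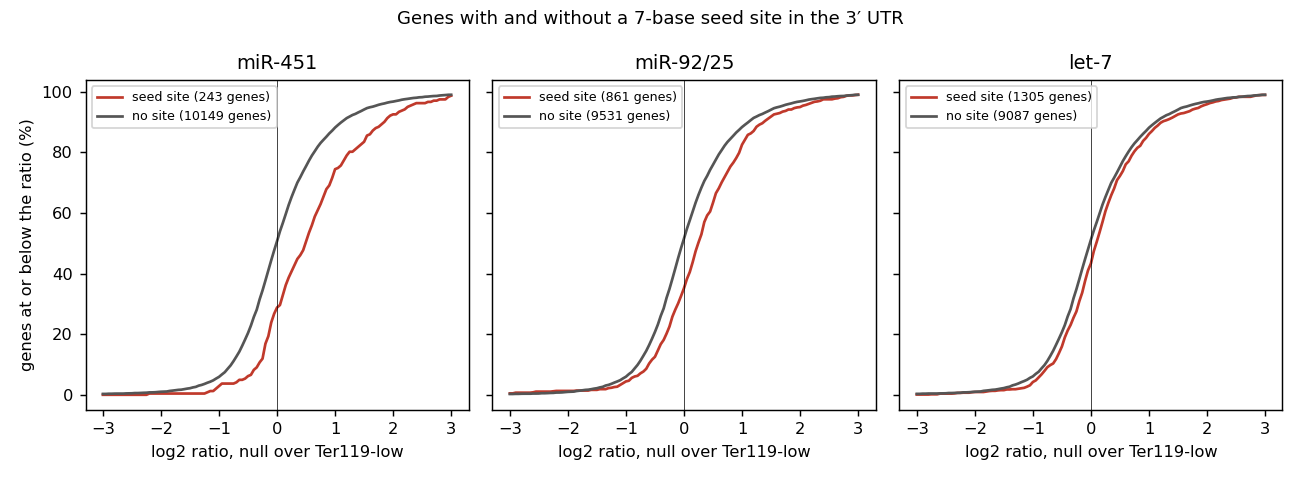
Cumulative share of genes (y axis, %) at or below a log2 ratio of Drosha-null Ter119-high over Ter119-low (x axis) for genes with (red) and without (grey) a 7-base seed site. The red line lies to the right of the grey line for miR-451 (medians 0.49 and −0.01), less so for miR-92/25 (0.24 and −0.02), and nearly on it for let-7 (0.09 and −0.02).

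Genes activated by p53 were mixed. Of 29 compared, 11 (37.9%, against 10.8% of all genes) were called higher and 3 (10.3%, against 5.91%) called lower, with a median of 0.35. Cdkn1a, the cell cycle inhibitor p21, had 83 counts in control, 729 in Drosha-null and 157 in Ter119-low cells, a ratio of 1.89 (1.64 to 2.15). Ccng1, another direct p53 target, had 742, 3388 and 941 counts and a ratio of 1.52 (1.42 to 1.63). For Cdkn1a the Ter119-low level was itself above the control by 0.83 (0.44 to 1.24). Plk3, a stress-responsive kinase, was the lowest of the list at 20, 10 and 29 counts (−1.80, interval −3.06 to −0.78; fractional counts). Trp53 itself was at −0.28 and Bax, a pro-apoptotic Bcl2 family protein, at 0.35, neither called. In 8 of the 11 genes called higher the Ter119-low level lay above the control. The same share over all genes called higher was not taken, so this count is a description. The median log2 ratio of Ter119-low over control was 0.12 for the list and 0.005 for protein-coding genes.

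Of 25 caspases and Bcl2 family genes compared, of 32 matched, 7 (28.0%, against 10.8% of all genes) were called higher and none lower, with a median of 0.23. Among the 15 with 10 CPM or more the median was that of all genes (a difference of −0.0002, in place of 0.25). Casp8, the initiator caspase of death receptors, had 12, 175 and 22 counts and was 6.25-fold higher in the Drosha-null cells (4.07 to 10.4). Bcl2l1, whose product Bcl-xL protects maturing erythroblasts, had 265, 194 and 265 counts (−0.77, interval −1.05 to −0.50) and was not called. Of 27 matched interferon-stimulated and RNA-sensing genes 14 were compared. Of these, 5 (35.7%, against 10.8% of all genes) were called higher and none lower, with a median of 0.72. As for the progenitor list, these values describe the genes that passed 1 CPM and not the list. Parp14, an ADP-ribosyltransferase, was highest at 5, 95 and 4 counts (17.2-fold, interval 7.18 to 71.1). It passed 1 CPM through the Drosha-null library alone, so that its call follows in part from the limit. The more abundant Mavs (0.45) and Irf3 (−0.61), which relay RNA sensing, were not called.

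Lists of the cell cycle had medians near that of all genes, and their shares of calls differed. Of 34 cyclins, kinases and inhibitors, 5 (14.7%, against 10.8% of all genes) were called higher and 1 called lower, with a median of 0.00. Cdk6 was the highest at 13, 26 and 5 counts (1.96), and E2f2, an E2F factor of erythroid divisions, the lowest at −1.03 (−1.16 to −0.89), which was −0.69 under total-count scaling. Of 50 DNA replication genes, 1 was called, Rrm2 at −1.01 (−0.67 under total-count scaling); Mcm6 (0.04) and Pcna (−0.10) lay at the median gene. Of 39 mitosis genes, 1 was called, Anln at 1.32, which encodes the cytokinetic scaffold anillin. Mki67 (−0.56) and Top2a (0.42), both markers of cycling cells, pointed in different directions and were not called.

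Of 23 glycolytic genes, 3 were called higher and 2 called lower, with a median of 0.42. The 2 called lower were the red-cell enzymes Pklr and Bpgm. Pkm, which encodes the pyruvate kinase of other tissues and was chosen after its values were seen, had 893 counts in control, 3358 in Drosha-null and 1255 in Ter119-low cells, a ratio of 1.10. The 2 pyruvate kinase genes therefore ran in opposite directions. Per length, in the authors' FPKM, Pklr was at 149.5 and Pkm at 56.3 in Ter119-low cells, and in Drosha-null cells Pklr was at 31.4 and Pkm at 152.2. Aldoc, a neuronal-type aldolase, was highest at 2, 33 and 5 counts (2.30, interval 1.03 to 4.11), and Gapdh (0.42) and Ldha (0.29) were not called. Of 20 hypoxia-inducible genes, 3 were called higher and none lower, with a median of 0.07. Ero1l, an oxidase of the endoplasmic reticulum, had 502, 1815 and 577 counts (1.33, interval 1.19 to 1.47). Ddit4, an inhibitor of mTORC1 on both the hypoxia and stress response lists, was highest at 9, 31 and 3 counts (2.87, interval 1.37 to 5.40).

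Among 8 genes of zinc handling the 2 called lower were Mt1 and Mt2, and the 2 called higher were zinc importers. Slc39a10 had 95, 369 and 73 counts and a ratio of 2.01 (1.65 to 2.40), and Slc39a6, chosen after its values were seen, was at 1.44. The more abundant importer Slc39a8 was at −0.61 and was not called. Of 22 integrated stress response genes, 3 were called lower and 1 higher, with a median of −0.37 that was −0.03 under total-count scaling. Atf4, the central transcription factor of this response, had 2357, 1208 and 2467 counts (−1.35, interval −1.45 to −1.25), and its target Trib3 had 109, 28 and 91 counts (log2 interval −2.69 to −1.40). Eif2ak1, the heme-regulated kinase of red-cell precursors, was at −0.27.

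Of 25 cholesterol synthesis and uptake genes, 22 lay above 0 and 2 were called higher, with a median of 0.47. The highest was Sc4mol, a sterol methyl oxidase, at 124, 266 and 103 counts (1.04, interval 0.71 to 1.39), and Fdps (0.07) was not called. Of 10 DNA methylation genes, 3 were called higher, led by Tet1 at 41, 146 and 43 counts (1.43, interval 0.94 to 1.97); Dnmt1 was at −0.29 and Uhrf1 at −0.40. Of 25 genes of Epo receptor and STAT5 signalling, 4 were called higher and 2 called lower, with a median of −0.31 that was 0.03 under total-count scaling. Epor itself had 1177, 1151 and 1138 counts (−0.31), and Socs2, a feedback inhibitor, was lowest at −1.39 (−2.05 to −0.79).

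Lists of the translation apparatus had medians below the median gene. None of 82 cytosolic ribosomal protein genes was called, yet each of the 82 had a ratio below 0, from −0.96 for Rpl7l1 to −0.28 for Rpl19, with a median of −0.58. Under total-count scaling the median was −0.24 and 5 of the 82 lay above 0. These genes took 4.62% of the Ter119-low and 3.99% of the Drosha-null counts. Of 76 mitochondrial ribosomal protein genes, 9 (11.8%, against 5.91% of all genes) were called lower and none higher, with a median of −0.54. Their median length was 1056 bases. In the shortest of 10 length classes, up to 1159 bases, 13.5% of genes were called lower. Mrpl42 was the lowest at 530, 177 and 498 counts (−1.81, interval −2.07 to −1.57). Of 50 ribosome biogenesis genes 3 were called lower, led by Nhp2, a core protein of H/ACA particles, at 750, 329 and 749 counts (−1.51, interval −1.70 to −1.32), with a median of −0.38. Of 39 translation factors 2 were called lower, among them Eif5a at −1.04 (−0.70 under total-count scaling), with a median of −0.41. The medians of the last 2 lists were −0.04 and −0.07 under total-count scaling.

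Of 84 nuclear-encoded genes of oxidative phosphorylation, mostly subunits with some assembly factors, 3 were called lower and none higher. Their median of −0.33 was 0.01 under total-count scaling. Cox7a2l was the lowest at −1.15 (−0.82 under total-count scaling) and Atp5b was at 0.14. No gene of 40 proteasome subunits was called (median −0.20), and 1 of 26 chaperones was, Bag3 at 1.47. Of 27 antioxidant genes 2 were called lower, including Txn2 at −1.27 (−0.93 under total-count scaling), and Gpx1 was at −0.78. Of 61 replication-dependent histone genes 4 were called higher and 2 called lower, with a median of −0.20; most have fractional counts, so reads were shared among the copies. Of 16 immediate early genes compared, of 26 matched, 1 was called in each direction, Klf2 with 0, 13 and 0 counts, at least 3.46-fold higher, and Socs3 at −1.13 (−0.80 under total-count scaling).

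Transcripts that host snoRNAs in their introns had the lowest median of the lists, −1.02, and 9 of 18 were called lower and none higher, against 5.91% of all genes called lower. Gas5, a host whose spliced RNA is normally degraded by a translation-dependent route, had 2297 counts in control, 1197 in Drosha-null and 2275 in Ter119-low cells, a ratio of −1.25 (−1.35 to −1.15) that was −0.91 under total-count scaling. Snhg6 was the lowest at 19, 3 and 24 counts (−3.10, interval −5.70 to −1.60), and Snhg1 was at −0.86. Under total-count scaling the median was −0.69. Long noncoding RNAs as a class were looked at after these values were seen. Of 245 compared, 73 (29.8%) were called lower and 8 higher, with a median of −0.56, and without the listed hosts 64 of 228 were called lower. Protein-coding genes had a median of −0.00 with 549 of 10444 (5.26%) called lower. Below a mean of 10 CPM the shares called lower were 31.7% of 208 long noncoding and 8.13% of 4292 protein-coding genes, and at 10 CPM or more 18.9% of 37 and 3.25% of 6152.

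Ratios varied with transcript length. In 10 classes of length from the authors' table, the median ratio was −0.40 in the shortest and 0.29 in the longest, and it was higher in each class than in the one before. In the shortest class, up to 1159 bases, 4.91% of genes were called higher and 13.5% lower. In the longest, from 6272 bases, 16.9% were called higher and 1.39% lower. Median lengths were 3455 bases for the genes called higher, 1938.5 for those called lower and 2901 for all. Several lists with low medians hold short transcripts. Median lengths were 702 bases for cytosolic ribosomal proteins, 774 for snoRNA hosts, 723.5 for oxidative phosphorylation and 1056 for mitochondrial ribosomal proteins. Some lists with higher medians hold long transcripts, at 4580 bases for the miRNA machinery and 4397 for integrins and adhesion. The glycolysis list, with a median ratio of 0.42, had a median length of 2068. The part of length in the values of these lists was not tested. The share of genes called also varied with abundance, from 23.9% higher and 14.1% lower in the least abundant of 10 classes to 2.50% and 3.15% in the most abundant.

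**Figure D5:**
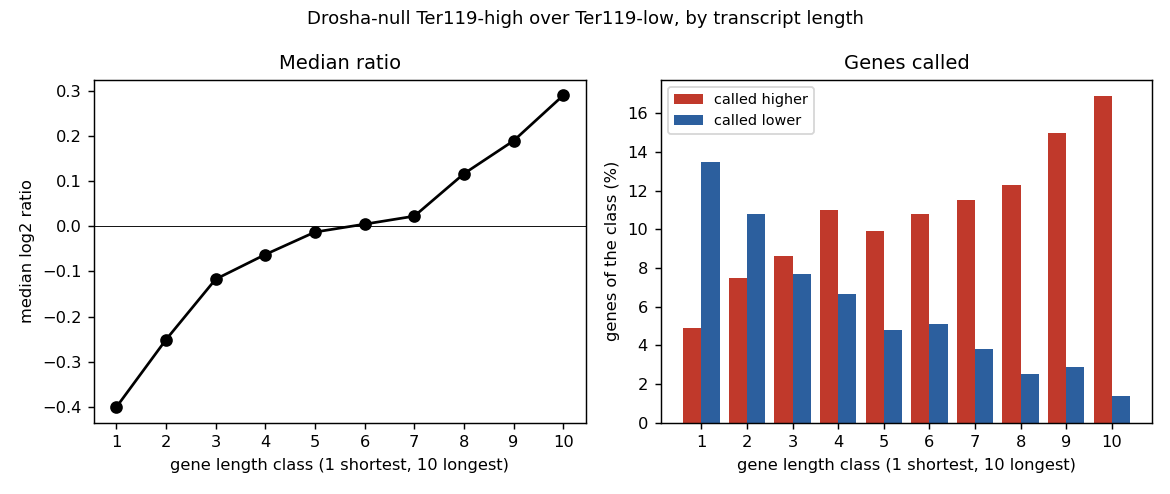
Genes are divided into 10 classes by the transcript length in the deposited table (x axis, 1 shortest). The left panel gives the median log2 ratio of Drosha-null Ter119-high over Ter119-low, from −0.40 to 0.29, and the right panel the percentage of genes called higher (red bars) and lower (blue bars), of which the blue are the taller in the 2 shortest classes.

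Markers of other cells were sparse in both libraries but not equal. The summed counts of 12 endothelial markers were 101 in control, 271 in Drosha-null and 107 in Ter119-low cells. Of these 12, 7 passed 1 CPM and 3 of the 7 (42.9%, against 10.8% of all genes) were called higher. Both Pecam1 and Tek passed through the Drosha-null library alone, so that their calls follow in part from the limit. Pecam1 had 3, 55 and 4 counts (3.32, interval 2.02 to 5.38) and Tek 4, 25 and 1 (3.82, interval 1.71 to 9.68), whereas Cdh5, the gene whose sequence drives the Cre, had 12, 32 and 16 (0.66, interval −0.23 to 1.64). The 2 lists that Pecam1 sits on, endothelial and adhesion, were highest in the same library. Cardiac muscle markers summed to 75, 342 and 60 counts in control, Drosha-null and Ter119-low cells. Of 9 matched, 5 passed 1 CPM, most of them through the Drosha-null library alone, so that their calls follow in part from the limit; the 5 were called higher. Actc1, cardiac α actin, had 19, 86 and 9 counts and Smyd1 had 0, 27 and 0, at least 7.19-fold higher. The median of the 5 was 3.44, or 2.85 with the 2 genes at 0 counts placed at their bound.

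Megakaryocyte and platelet markers summed to 441, 848 and 540 counts, with Gp1ba at 3, 39 and 5 (2.54, interval 1.30 to 4.34) and Itga2b at 79, 126 and 96 (0.07, not called). Macrophage markers summed to 55, 68 and 25 counts, which in scaled CPM was 6.55, 6.10 and 2.81, so that the control was then the highest. Mesenchymal markers summed to 87, 129 and 81 counts, or 10.4, 11.6 and 9.09 in scaled CPM. Neural markers summed to 198, 310 and 211 counts, which in scaled CPM was 23.6, 27.8 and 23.7. None of the 6 was called higher, and Elavl3, a neuronal RNA-binding protein, was called lower at 12, 2 and 17 counts. Of the granulocyte list the tables held 1 gene, Mpo, with 6, 23 and 0 counts. Trophoblast markers summed to 119, 28 and 95 counts, and the 2 compared split. Synb, the placental syncytin-B, made up most of the sum and was called lower at 109, 6 and 85 counts (−4.03, interval −5.63 to −2.97), and Krt18, a keratin of simple epithelia, was called higher at 4, 20 and 3 counts (2.25, interval 0.66 to 4.81). Hepatocyte and endoderm markers summed to 5, 6 and 6 counts. In pooled RNA fewer cells of a type and less RNA per cell cannot be told apart, and the part of other cells in the endothelial, adhesion, progenitor and interferon lists was not tested.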

How the data were processed

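RNA of 3 sorted erythroblast libraries was analysed, 1 per group, grouped by their labels. Per the file headers, the authors deposited 2 tables with expected counts per gene and FPKM values for each cKO library beside the control; the sources used here do not give the aligner, counting tool, strand setting, annotation or build, so genes that overlap on opposite strands cannot be told apart. The deposited FPKM values hold 0.001 at 0 counts, per the values of the tables. The tables, with 14640 and 14300 genes, were joined on gene ID into 15058 (13882 in both); an absent gene was given 0 counts, and 21 symbols turned into dates were restored from RefSeq GRCm38 gene IDs, of which 15022 matched. Expected counts were rounded to whole numbers. edgeR 4.0.16 (R 4.3.3) gave TMM factors (control 0.885, Drosha-null 1.20, Ter119-low 0.946). Ratios had 0.5 counts added, and the 95% interval came from the exact Clopper-Pearson interval of the Drosha-null share of a gene's 2 counts. Without molecular identifiers, PCR copies count as separate reads, so intervals and the floor of 3 counts cover counting error alone. A gene was compared at 1 CPM or more in either cKO library. Of the genes compared, 984 (9.12%) had fractional counts, which arise where reads are shared among copies.

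The design has 1 library per group, so counts and medians stand in place of tests. Members and the 48 gene lists (1294 of 1344 entries matched) were chosen with earlier results of these data known. The text names a fixed panel, the globins, 12 genes in each direction ranked on whichever end of the interval is closer to 0 (10 CPM or more, no predicted genes), and from each list the 2 most abundant, the highest and the lowest; other genes are said to be chosen after their values were seen. A few genes that these rules pick are not reported here. Mitochondrially encoded genes were not analysed here. Alternatives were median-of-ratios factors (DESeq2 1.42.0), total counts, other filters, 5 counts added, FPKM with 1 added, whole-number counts, 8-base sites and 5 length classes.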

Additional observations from a re-analysis of the deposited data

How the results depend on the processing

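The number of genes called higher was 1170 and rose to 2036 with total counts, where 304 in place of 638 were lower; with 10 CPM or more 406 were higher and 255 lower, of 6590 genes compared. With FPKM and 1 added, 120 genes were lower. All 1170 and 304 of the 638 calls remained with total counts, and 1170 and 591 with median-of-ratios factors. Both scalings raise every ratio, so a higher call could be lost there only at the 1 CPM limit. The median of all genes moved from −0.02 to 0.33 with total counts, over 10894 genes. Another scaling moves all ratios by nearly the same amount. A list median relative to that of all genes can then change mainly through genes crossing 1 CPM. Of 43 such medians none changed sign with the other scalings, which therefore says little, or with 5 counts added. Nor did any of the 40 that FPKM gave. With 10 CPM or more 3 of 38 did: caspases and Bcl2 family (−0.0002 from 0.25), mitosis (0.0555 from −0.07) and immediate early genes (0.0098 from −0.15), where fewer genes were compared. Known targets of erythroid miRNAs fell to 0.21 from 0.80 there. Blood progenitor genes fell to 0.57 from 1.60 with FPKM, and cardiac markers to 1.41 with FPKM and 2.22 with 5 counts added from 3.45. The cause of the latter shifts was not tested. Of 196 genes named by the rule, 16 lost and 6 gained a call with total counts, and 32 lost and 2 gained one with FPKM. No paired analysis was possible because each group has 1 library, and leaving out a library leaves no comparison.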
